A study of Mus musculus with 56 samples.

Results

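Ion pumps, channels and solute carriers were taken as every spot whose gene symbol in the array files began with Atp1 of the sodium pump, Scnn, Aqp, Cftr, Kcn, Cacn, Clcn, Clic, Trpc, Trpm, Trpv, or with Slc or Slco and a family number, apart from Slc34a2. This rule used names and no measured value. It found 145 cDNA clones of 128 gene symbols among 7625 gene-named clones of 5883 symbols. Of the 128 symbols, 127 stood under the same name in the RefSeq gene table and 1, Slc24a6, is now called Slc8b1. Trpc4ap and Slc9a3r1 matched by symbol, although they encode proteins that bind a channel and an exchanger. No clone carried the symbol Cftr.

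In the lung, sodium enters alveolar epithelial cells through the epithelial sodium channel and is pushed out at the basal side by the sodium pump, Na,K-ATPase. Water follows the salt across the cells and through water channels, the aquaporins, and this transport clears fluid from the air spaces after an injury. Solute carriers move amino acids, sugars, metals, nucleosides and organic ions across cell membranes. Potassium, chloride and calcium channels set the membrane voltage and the ion currents that drive many of these carriers.

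The mice were female C57Bl/6J animals aged 7 weeks, anesthetized with Xylazine and Ketamine. They received 20 µl of oleic acid (OA), a fatty acid that injures the lung, or of physiological serum, both by the tail vein. Total RNA was taken from the smallest lung of each mouse, per the study's methods, labelled with 33P and hybridized to nylon membranes spotted with MUSV29K cDNA clones. The 27 OA mice were killed at 1 (4 mice), 1.5 (6), 3 (7), 4 (4), 18 (3) and 24 hours (3), which the study groups into early (10 mice), intermediate (11) and late (6) stages, and the 8 serum mice at 1 (2), 1.5 (1), 3 (2), 18 (2) and 24 hours (1). Signals are given as log2 values per mouse, after averaging the arrays of a mouse, on 50 OA arrays and 9 serum arrays. Mice keep their label names, in which the number after L is taken as a lot of unstated meaning. Lots 2 and 3 held all early mice and lot 1 all late mice, so that lot and time cannot be told apart between these stages. RNA of lung tissue with all its cells mixed cannot tell fewer cells of a type from less RNA per cell.

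The number of arrays limited the precision, and the median SD between mice of a time point was 0.229 for the members and 0.219 for all gene-named clones. The median SD between arrays of the same mouse was 0.243 and 0.238, so that the spread between mice includes that of the arrays. The raw array median was 6.75 to 9.36 (log2 intensity) on OA arrays and 5.73 to 8.39 on serum arrays. Markers of red cells had a mean between 13.75 and 13.97 in all OA mice. Markers of liver, 6 clones of which 2 were above the unnamed spots, had a mean of 7.85 to 8.58 at 1 hour and of 9.52 to 9.74 at 24 hours. No clone of the lists for alveolar type I cells, airway cells or heart muscle was on the array, while both clones found for alveolar type II cells were measured. The F test over time, described next, called 3 of 8 B cell clones and 3 of 6 liver clones, and none of the clones for neutrophils, macrophages, red cells, alveolar type II cells, endothelium, smooth muscle and fibroblasts or T cells. On the scale of the array intensities, macrophage markers had a mean of 8.14 to 8.92 in OA and 7.37 to 7.73 in serum mice. Only 2 of these 5 macrophage clones were above the unnamed spots. In the comparison with serum given below, 4 of the 5 were called higher in OA and 1 lower, with differences from -0.316 to 2.617 (log2). The part of these cells in the results was not tested.

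A clone was called measured where its mean over the OA mice was above 8.953, the 95th percentile of the 2159 spots with no gene name. Of the 145 members, 53 (36.6%) passed this level, the same share as the 2789 of 7625 gene-named clones (36.6%). The median member signal was 8.28 against 8.50 for all clones. In each mouse judged against its own unnamed spots, 29 members were above in all 27 mice, 36 in some and 80 in none. Since each clone binds its own stretch of transcript, signals of different clones do not order the transcripts. The 10 members of highest signal, which are listed with no order of transcript levels, held 3 sodium pump clones, at 12.31 and 11.95 for Atp1b1 and 11.59 for Atp1b3. The others were clones of the zinc carrier gene Slc30a9 (12.69), the A-type potassium channel gene Kcnd3 (12.12), the intracellular chloride channel gene Clic4 (11.94), Slc45a3 (11.83), Slc16a13 of the monocarboxylate carrier family (11.73), the mitochondrial sodium and calcium exchanger gene Slc24a6 (11.66) and the mitochondrial phosphate carrier gene Slc25a3 (11.28).

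None of the 8 clones of sodium and water transport genes passed the test for a difference between the 6 time points (limma F test, adjusted p under 0.05). At an unadjusted p under 0.05, 1 of the 8 passed, that of Scnn1g. Over all gene-named clones, 153 of 7625 (2.01%) passed the adjusted test.

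Atp1b1 encodes the main beta subunit, which the pump needs to fold and to reach the membrane, and had 3 clones. In clone 9318, the early mice spanned 11.86 to 12.33 (median 12.20), the intermediate mice 11.73 to 13.18 (median 12.57) and the late mice 11.74 to 12.54 (median 12.27). The intermediate mean was 0.41 ± 0.15 (SE, log2) above the early mean (adjusted p = 0.165). The intermediate mice were the most spread and reached both below and above the early mice. At 3 hours the mice of lot 3 lay at 11.73, 12.00 and 12.16, those of lot 2 at 12.58 and 13.10 and those of lot 1 at 12.74 and 13.18. The part of lot in this spread was not tested. The second clone (1830) gave a like difference of 0.48 ± 0.17 (adjusted p = 0.154), with early mice between 10.67 and 12.11 and intermediate mice between 11.47 and 12.91. The third clone (8964) stayed at 5.24 to 6.41, not above the level of unnamed spots in any mouse.

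Atp1b3, the gene of another beta subunit, had a clone (661) at 10.84 to 12.87 over all OA mice, with time means between 11.42 and 11.77. Its F test gave an adjusted p of 0.938. The highest mice were P5L3 at 12.87, P8L3 at 12.64 and P10L1 at 12.28, from 1.5, 3 and 18 hours, and the other mice reached at most 12.07. Mice P5L3 and P8L3 had 1 array each.

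**Figure D1:**
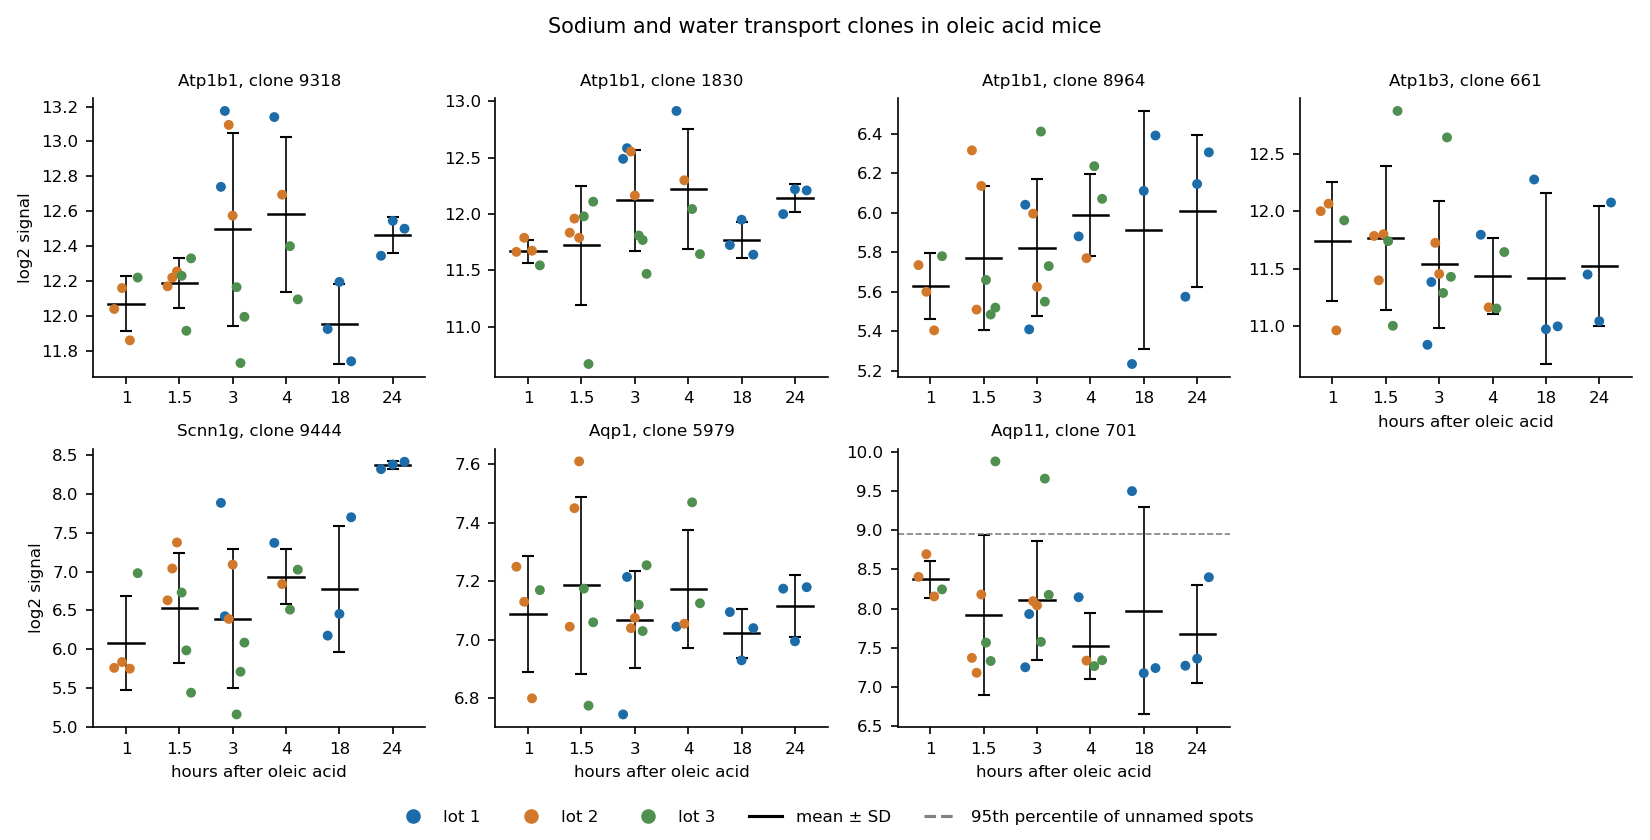
Log2 signal of 7 sodium and water transport clones in each OA mouse (points, coloured by lot) against hours after oleic acid on an ordinal axis, with the mean and SD of each time point and the 95th percentile of unnamed spots where it falls in the panel. Atp1b1 clone 9318 spreads most at 3 and 4 hours, and the 24 hours mice of Scnn1g, at 8.32 to 8.41, lie above all other mice of that clone.

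The water channel genes had 2 clones, and neither was above the unnamed spots on average. The clone of Aqp1 (5979), the gene of the water channel of lung capillaries, lay at 6.75 to 7.61 in all 27 mice (F test adjusted p = 0.92). The clone of Aqp11 (701), the gene of an intracellular aquaporin, was above the unnamed spots in 3 mice only. These were P5L3 at 9.88, P8L3 at 9.66 and P10L1 at 9.50, the same 3 mice that were highest for Atp1b3, and the other mice lay between 7.17 and 8.70. Mice P5L3 and P8L3 had 1 array each and P10L1 had 2. Aqp11 did not differ between times (adjusted p = 0.824).

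Scnn1g, the gene of the gamma subunit of the epithelial sodium channel, was the only Scnn gene on the array, and its clone (9444) was above the unnamed spots in no OA mouse. Within that dim range the mice lay at 5.75 to 6.98 at 1 hour, 5.44 to 7.38 at 1.5 hours, 5.16 to 7.88 at 3 hours, 6.51 to 7.37 at 4 hours, 6.17 to 7.70 at 18 hours and 8.32, 8.38 and 8.41 at 24 hours. The 24 hours mice did not overlap the others. The F test over the 6 times missed the threshold (adjusted p = 0.0751), as did the late minus early difference (adjusted p = 0.0522), and no fold is given for a clone at this level. Without mouse P2L3 or without mouse P2L1 the F test passed, and its lowest adjusted p was 0.0199.

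The mean of the 6 liver marker clones was also highest in the 24 hours OA mice. Alb1, the albumin gene, had a mean of 10.16 at 1 hour and 13.29 at 24 hours, Hpxn (hemopexin) 7.78 and 10.56, and Fga (a fibrinogen chain) 7.08 and 9.90, and all 3 passed the F test (adjusted p = 0.0473, 0.000139 and 0.0127). The 2 clones of Ttr and that of Ahsg did not pass (adjusted p = 0.93, 0.992 and 0.822). The serum mouse at 24 hours, which received no oleic acid, had a liver list mean of 9.43 and a Scnn1g signal of 9.43 on the scale of the array intensities, against 7.04 to 8.12 and 6.02 to 7.42 in the other 7 serum mice. The part of liver transcripts in the Scnn1g values was not tested.

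**Figure D2:**
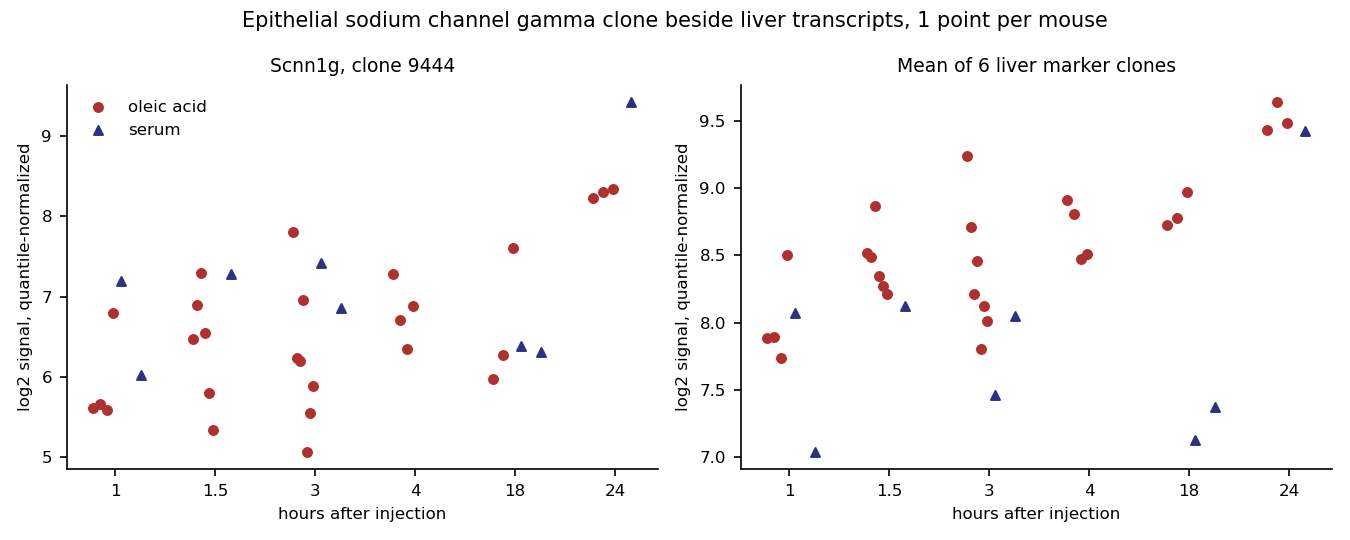
Log2 quantile-normalized signal of the Scnn1g clone (left) and mean of the 6 liver marker clones (right) in each mouse against hours after injection, with OA mice as circles and serum mice as triangles. The 24 hours mice of both treatments stand above all other mice in both panels, and the next highest liver mean is 9.24, in a 3 hours OA mouse.

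Sodium transport has regulators that the symbol rule leaves out, among them the kinase Sgk, the ubiquitin ligase Nedd4l that removes the sodium channel from the membrane, the Wnk kinases and the Fxyd proteins of the pump. The list held 21 clones of 16 genes. It included Oxr1, an oxidation resistance gene that is not a sodium transport regulator. None of the clones passed the limma F test over the 6 times, and 5 (23.8%) had an unadjusted p under 0.05, beside 15.8% of all clones. The Oxr1 clone (6596, F test unadjusted p = 0.0117) was among these 5, so that the share is not one of regulators alone. Between stages, Nedd4l (clone 7387, not above the unnamed spots in any mouse) rose from early to intermediate times (adjusted p = 0.0353) and fell from intermediate to late times (adjusted p = 0.0417). Sgk (clone 8771) had time means of 9.53, 9.59, 10.02, 10.15, 9.24 and 9.08 and fell by 0.93 on the log2 scale from intermediate to late times (adjusted p = 0.00477), while its early to intermediate difference of 0.53 did not pass (adjusted p = 0.0894). Of 17 clones of 12 other ion pump genes (calcium pumps and the proton pump of acidic vesicles), none passed the F test and 2 (11.8%) had an unadjusted p under 0.05. The proton pump clone of Atp6v1e1 (234) rose by 0.39 from early to late times (adjusted p = 0.0482). A brighter clone of the same gene (6568, mean 11.87 against 9.57) did not pass there (0.65, adjusted p = 0.197). No values with lot as a block are given for the stage calls of Nedd4l, Sgk and Atp6v1e1.

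Over all 145 members, 4 (2.76%) passed the F test over the 6 times, beside 2.01% of all gene-named clones. With lot as a block 2 members passed, beside 0.931% of all clones. After subtraction of the serum mean of the same time 73 did, beside 55.9% of all clones, in a fit that gives the serum mean no error of its own. No serum mouse was killed at 4 hours, so the 3 hours serum mean was subtracted from the 4 hours OA mice. At an unadjusted p under 0.05 the members counted 19 (13.1%) and all clones 1208 (15.8%). The 4 were clones of the amino acid carrier genes Slc38a2 and Slc3a2, the potassium channel gene Kcnk1 and the calcium channel gene Cacna1d. Between stages, 6 members passed from early to intermediate times, 5 higher and 1 lower, beside 2.57% of all clones. From early to late times 2 members passed, both higher, beside 1.65% of all clones. From intermediate to late times 4 members passed, 1 higher and 3 lower, beside 3.19% of all clones. The median stage differences of the members were 0.05, 0.03 and -0.01 on the log2 scale, and those of all clones were near 0.

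Slc38a2, the gene of a sodium-coupled carrier of small neutral amino acids, rose from the early to the intermediate times and fell from there to the late times. The early mice of its clone (4970) spanned 10.51 to 11.09 (median 10.74), the intermediate mice 10.61 to 11.45 (median 11.01) and the late mice 10.29 to 10.73 (median 10.39). Of the 11 intermediate mice, only 1, at 10.61, lay within the range of the late mice. The F test gave an adjusted p of 0.00804, the early to intermediate difference was 0.40 ± 0.09 (SE, log2, 1.32-fold, adjusted p = 0.019) and the intermediate to late difference was -0.66 ± 0.11 (adjusted p = 0.000467). The rise was also seen within lots 2 and 3 (0.49) and the fall within lot 1 (-0.56), although neither passed alone there (adjusted p = 0.0507 and 0.112). With lot as a block the F test still passed (adjusted p = 0.0148). The F test passed without any of the 27 mice in turn, with adjusted p between 0.00195 and 0.0247.

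Slc3a2, the gene of the heavy chain that carries several amino acid exchangers to the membrane, took a similar course in clone 2895. Its early mice spanned 10.71 to 11.34 (median 10.88), the intermediate mice 10.88 to 11.81 (median 11.47) and the late mice 10.78 to 11.15 (median 10.84). The early to intermediate difference was 0.49 ± 0.10 (SE, log2, 1.4-fold, adjusted p = 0.00847) and the intermediate to late difference was -0.53 ± 0.12 (adjusted p = 0.0111), with an F test adjusted p of 0.0351. With lot as a block the rise still passed (0.43, adjusted p = 0.0441), but the F test (adjusted p = 0.0936) and the fall (-0.49, adjusted p = 0.21) did not. The F test call was also lost without any of 11 mice (P2L2, P2L3, P3L1, P4L1, P11L2, P13L3, P10L1, P11L1, P12L1, P7L1 or P8L1), the adjusted p reaching 0.101. The second clone of Slc3a2 (6722) did not pass (F test adjusted p = 0.664). Its early to intermediate difference was 0.34 ± 0.20 and its intermediate to late difference -0.01 ± 0.23. Low mice in this clone were P7L2 (1.5 hours, 1 array) at 8.33 and P11L2 (4 hours) at 9.43.

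The promoters of these 2 genes are shown because their clones were the members called in both the rise and the fall without lot in the fit. Each is the 250 bases before the RefSeq transcript start in GRCm38.p6, on the minus strand, at chr15:96699729-96699978 for Slc38a2 and chr19:8713898-8714147 for Slc3a2. Capitals mark GGGCGG or its reverse complement CCGCCC.
Slc38a2: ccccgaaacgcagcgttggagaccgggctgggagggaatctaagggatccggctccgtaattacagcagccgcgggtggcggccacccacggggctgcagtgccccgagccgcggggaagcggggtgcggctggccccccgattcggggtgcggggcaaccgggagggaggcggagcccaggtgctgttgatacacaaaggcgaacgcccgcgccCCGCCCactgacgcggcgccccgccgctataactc
Slc3a2: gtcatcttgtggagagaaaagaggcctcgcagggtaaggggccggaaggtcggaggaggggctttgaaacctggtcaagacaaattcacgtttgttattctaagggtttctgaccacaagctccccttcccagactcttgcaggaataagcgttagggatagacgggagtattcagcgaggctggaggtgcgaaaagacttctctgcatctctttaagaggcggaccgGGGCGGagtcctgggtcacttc
Each window held GGGCGG 1 time on either strand, and 32.7% of 32851 mouse windows of this length did so at least once. Neither held TGATGNAA (3.45% of windows, a form of the amino acid response element), CCAAT (33.8%) or TATAAA (12.4%) on either strand. Sequence outside these windows, introns included, was not searched. The Slc38a2 window was 72% and the Slc3a2 window 53.6% G and C, against a median of 52.4%. Of the 128 member genes 95 had such a window. Counting a gene where any of its windows held the motif, 67 held GGGCGG and 4 held TGATGNAA (Slc7a11, Slc7a7, Slco2a1 and Trpc4ap). The shares given above are per window and none was computed over all genes, so that these gene counts cannot be set against them.

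Slc7a11, the gene of the cystine and glutamate exchanger that pairs with the Slc3a2 heavy chain, had a spread too wide for a call. The mice of its clone (4929) spanned 8.64 to 10.73 at early, 9.18 to 11.47 at intermediate and 9.71 to 11.32 at late times. The time means were 9.48 at 1 hour and 10.75 at 24 hours, and the F test adjusted p was 0.508. Of the other 13 clones of amino acid carriers none passed the F test.

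**Figure D3:**
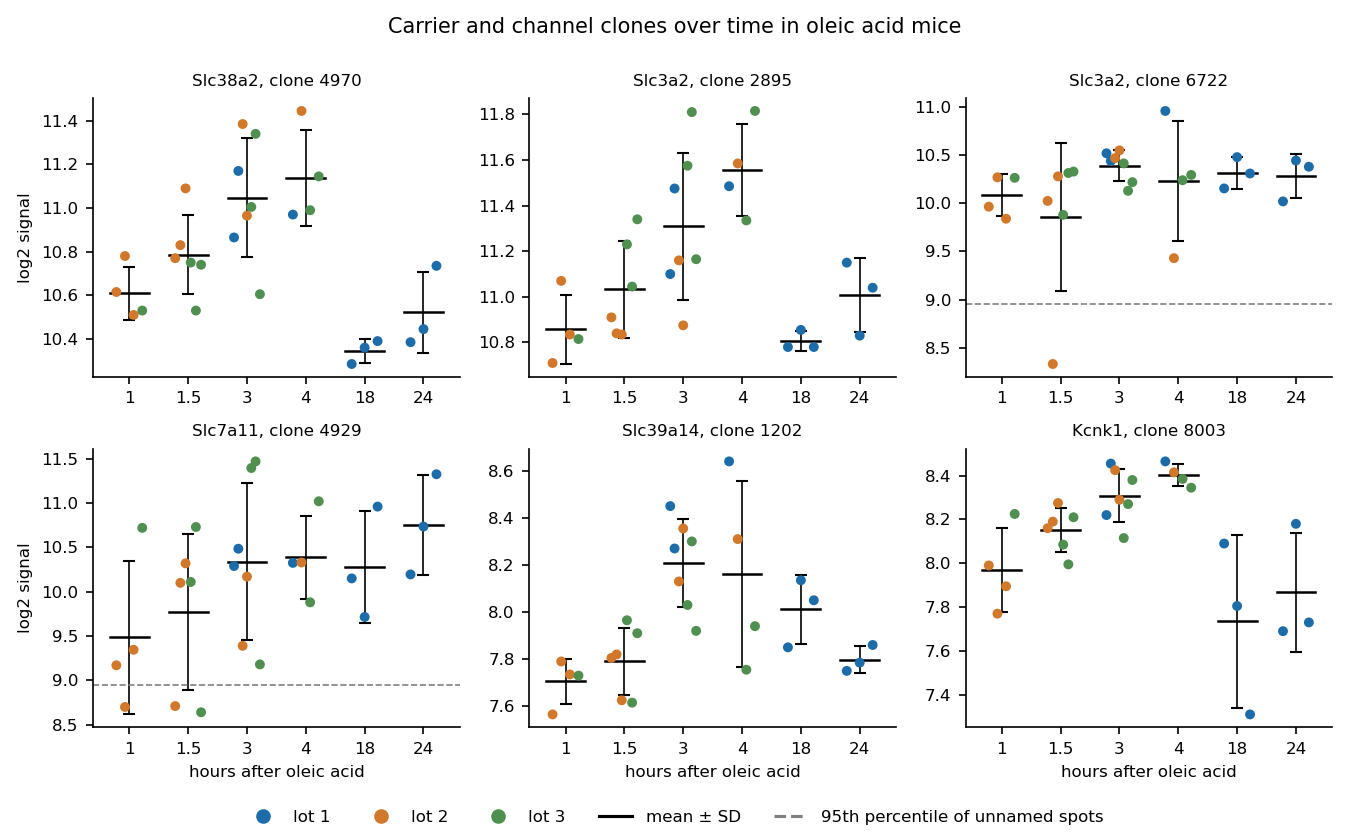
Log2 signal of 6 carrier and channel clones in each OA mouse (points, coloured by lot) against hours after oleic acid on an ordinal axis, with mean and SD. Slc38a2 and Slc3a2 clone 2895 peak at 4 hours with means of 11.14 and 11.55, while the second Slc3a2 clone and Slc7a11 overlap between all time points.

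Cacna1d, the gene of the pore of an L-type calcium channel, had its lowest mean, 9.77, at 1.5 hours and rose from the early to both later stages. The mice of its clone (3254) spanned 9.47 to 10.85 at 1 hour, 9.05 to 10.38 at 1.5 hours, 9.75 to 11.18 at intermediate times and 10.63 to 10.97 at late times. The F test adjusted p was 0.042, the early to intermediate difference 0.63 ± 0.16 (SE, log2, 1.54-fold, adjusted p = 0.0442) and the early to late difference 0.81 ± 0.19 (1.76-fold, adjusted p = 0.0324). The F test lost its call without any of 18 of the 27 mice (adjusted p up to 0.084), and all 3 calls were lost with lot as a block (adjusted p = 0.214, 0.132 and 0.998).

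Slc23a1, the gene of a sodium-coupled carrier of vitamin C, also had its lowest mean, 10.49, at 1.5 hours. The mice of its clone (8139) spanned 10.04 to 11.64 at early, 10.76 to 11.97 at intermediate and 11.17 to 11.59 at late times. It passed from early to intermediate (0.67 ± 0.17, adjusted p = 0.0353) and from early to late times (0.77 ± 0.20, adjusted p = 0.0464), but not the F test (adjusted p = 0.0679). Both calls were lost with lot as a block (adjusted p = 0.155 and 0.998).

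The other 4 members with a stage call were above the unnamed spots in no mouse, so that only their order is given. Kcnk1, the gene of a background potassium channel, lay at 8.12 to 8.46 at intermediate and 7.31 to 8.18 at late times and fell between them (adjusted p = 0.00114; F test adjusted p = 0.02). Slc39a14, the gene of a zinc and iron importer, lay at 7.57 to 7.96 at early and 7.75 to 8.64 at intermediate times and rose between them (adjusted p = 0.00854). Slc28a2, the gene of a sodium-coupled nucleoside carrier, fell between the same stages (clone 8966, adjusted p = 0.0482) and had a second clone that did not pass (adjusted p = 0.392). Slc31a2, the gene of a copper carrier, rose from intermediate to late times (adjusted p = 0.0357). With lot as a block the calls of Slc28a2 and Slc31a2 and the F test of Kcnk1 were lost (adjusted p = 0.234, 0.843 and 0.114).

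By role, the called members were few and scattered. None of 7 chloride channel, 4 TRP channel, 8 glucose carrier, 19 mitochondrial carrier, 12 metal carrier, 15 ion exchanger, 4 monocarboxylate carrier, 11 nucleoside and nucleotide sugar carrier and 15 organic ion carrier clones passed the F test. At an unadjusted p under 0.05 these groups counted 0, 1, 1, 3, 3, 2, 0, 2 and 1 clones. The potassium channels gave 1 of 16, the calcium channels 1 of 4 and the amino acid carriers 2 of 16. The median early to intermediate difference was 0.30 for the sodium pump clones and 0.36 for the single Scnn1g clone, against 0.10 for amino acid carriers, 0.05 for potassium channels and -0.07 for metal carriers, and neither a sodium pump clone nor Scnn1g passed. The mitochondrial carriers, among them the ATP and ADP exchangers Slc25a4 and Slc25a5, stayed within -0.25 and 0.20 in that comparison.

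**Figure D4:**
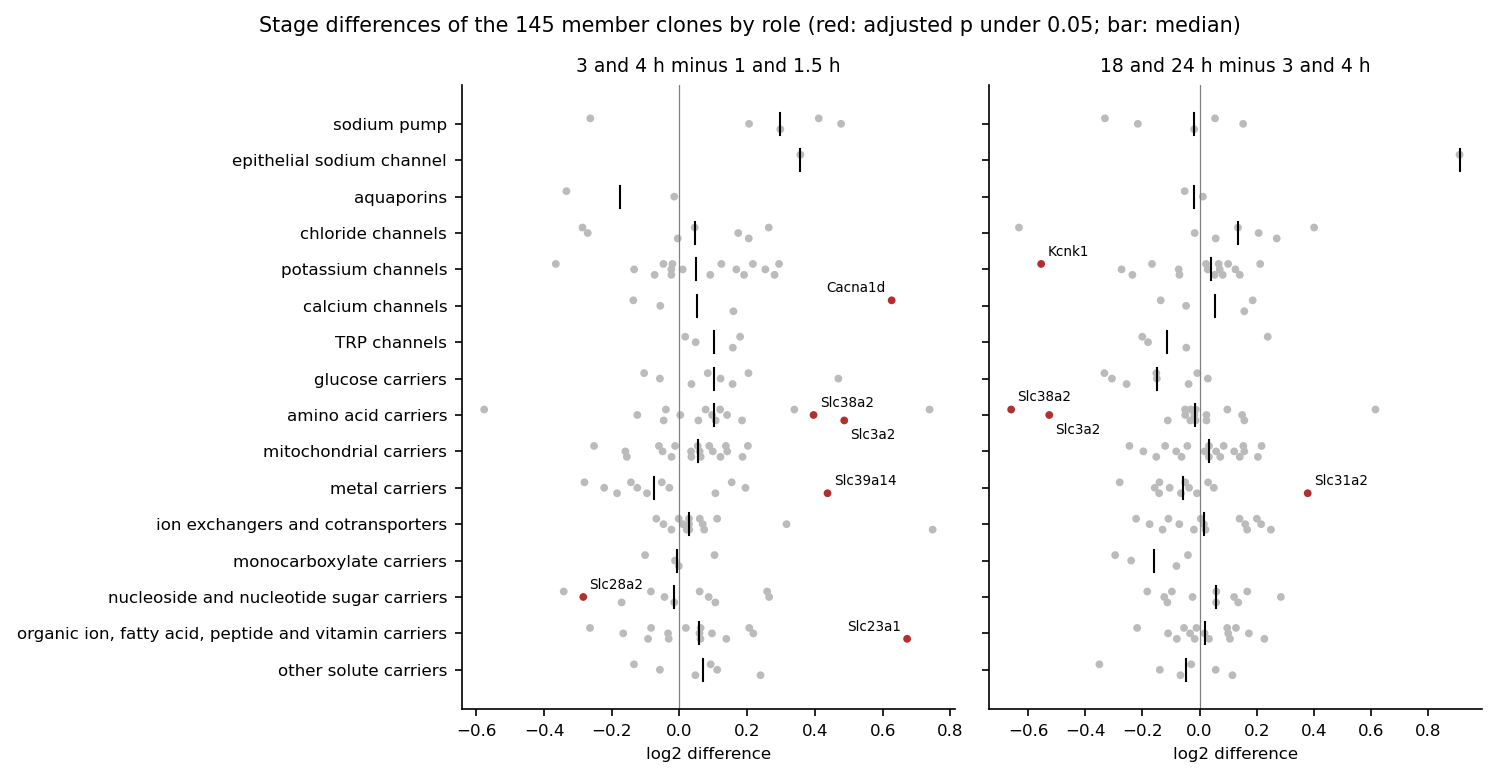
Log2 stage differences of the 145 member clones (points) by role, intermediate minus early on the left and late minus intermediate on the right, with red points for an adjusted p under 0.05 and a bar at each group's median. The red points are 6 on the left and 4 on the right, and the single Scnn1g clone, at 0.91 on the right, is not among them.

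Oleic acid and serum mice were compared on quantile-normalized array intensities at the 5 times both had. Of the members, 86 (59.3%) passed, 49 higher and 37 lower in OA mice, beside 61.6% of all clones, 2619 higher and 2081 lower. Centring each array on its median instead moved the split to 42 higher and 50 lower for the members, and to 2169 and 2810 for all clones. The median difference was 0.06 for the members and 0.05 for all clones, and -0.06 for both with median centring, so that small differences have no settled direction. Of the 86 clones, 45 were above the unnamed spots in neither treatment. At each time, 30.0%, 14.1%, 40.1%, 29.2% and 22.3% of all clones passed at 1, 1.5, 3, 18 and 24 hours. Serum had 1 mouse at 1.5 and 1 at 24 hours, which these tests assume to vary like the mice of the other groups. The labels give no lot for the serum arrays, so that lot and treatment cannot be told apart here.

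The beta subunit clones of the sodium pump were higher in OA mice or did not pass, and their values moved with the scaling. The OA mice had Atp1b1 clone 9318 at 11.64 to 13.11 (median 12.20) and the serum mice at 11.35 to 11.84 (median 11.62), a difference of 0.61 ± 0.14 (adjusted p = 0.000567) that turned to -0.16 with median centring (adjusted p = 0.324). For clone 1830 it was 0.32 ± 0.17 (adjusted p = 0.0954) and -0.40 with median centring (adjusted p = 0.0258). Atp1b3 was higher by 0.80 ± 0.23 (adjusted p = 0.00299), and by 0.36 with median centring (adjusted p = 0.161). Aqp1, Aqp11 and Scnn1g passed as well (adjusted p = 3.51e-05, 0.0353 and 0.039), Scnn1g lower and the others higher in OA mice, but were too dim for a fold. The call of Aqp11 was lost in 3 and that of Scnn1g in 5 of 8 fits that left out a serum array.

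Slc38a2 was 0.35 ± 0.10 higher in OA mice (adjusted p = 0.00248), with OA mice between 10.18 and 11.30 and serum mice between 9.71 and 10.57, and the difference was 0.06 with median centring (adjusted p = 0.611). By time, with 2 serum mice or fewer each, it was 0.69 at 3 hours (adjusted p = 0.00261) and 0.17, 0.10, 0.06 and 0.71 at 1, 1.5, 18 and 24 hours (adjusted p = 0.542, 0.823, 0.853 and 0.0429), the 1.5 and 24 hours values resting on 1 serum mouse each. Slc3a2 clone 2895 was 0.02 ± 0.10 from serum (adjusted p = 0.902), and -0.41 with median centring (adjusted p = 0.000163). Slc7a11 was higher by 1.05 ± 0.30 (adjusted p = 0.00351), OA mice spanning 8.56 to 11.39 and serum mice 8.29 to 9.92. The serum median of 8.71 lay below the level of unnamed spots in each serum mouse (8.95 to 9.80), so that no fold is given.

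No OA mouse overlapped any serum mouse in 21 members, 15 higher and 6 lower in OA, beside 13.0% of all gene-named clones. The 3 members farthest above serum were Slc24a6, Slc23a1 and Cacna1d, and all 3 differed by over 3 on the log2 scale, as did 36 of 7625 clones (0.472%). Slc24a6 lay at 9.66 to 12.28 in OA mice and at 7.10 to 7.81 in serum mice, where it was not above the unnamed spots, and was at least 5.52-fold higher (adjusted p = 4.91e-15). Slc23a1 lay at 9.94 to 11.57 against 7.14 to 8.08 (at least 3.6-fold, adjusted p = 6.13e-15). Cacna1d lay at 8.95 to 10.87 against 6.96 to 7.52 (at least 2.19-fold, adjusted p = 1.26e-15). Each bound is the OA mean over the mean of the levels that unnamed spots reached in the serum mice. At 1 hour the differences were already 4.05, 2.79 and 2.90.

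These 3 clones, grouped after their values were seen, also varied together among OA mice. Only these 3 pairs were correlated. Whether other members varied in the same way was not tested, so that the relation is not shown to be particular to these clones. Over 27 mice Cacna1d correlated with Slc23a1 at Pearson r = 0.91 and Spearman rho = 0.86, with Slc24a6 at 0.92 and 0.76, and Slc23a1 with Slc24a6 at 0.83 and 0.74. The permutation p was 1e-05 for each r, the smallest that 100000 resamples give, and at most 5e-05 for rho, and Benjamini-Hochberg adjustment over the 3 pairs left at most 1e-05 and 5e-05. The resamples shuffled mice across all times and lots. These p therefore cannot separate a relation between clones from a shared course over time or lot. Without the 2 mice farthest from the median, r was 0.88, 0.88 and 0.78. Within lots 2 and 3 (9 mice each) r was 0.83 to 0.98. Within lot 1 it was 0.60 for Cacna1d with Slc23a1 but -0.22 and -0.34 for the pairs with Slc24a6, so that those 2 relations did not hold in lot 1, whose mice were all from 3 hours on.

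Of the 16 potassium channel clones, 7 passed higher and 3 lower in OA mice (62.5%), beside 61.6% of all clones. The potassium channel genes named here were all higher and were picked for their low adjusted p. Kcnk6, the gene of a background potassium channel, lay at 9.68 to 10.43 in OA and 7.95 to 8.95 in serum mice (at least 1.88-fold higher, adjusted p = 4.76e-14). Kcnd3 lay at 11.69 to 12.60 against 10.90 to 11.40, higher by 0.95 ± 0.09 (1.93-fold, adjusted p = 4.45e-10), and by 0.36 with median centring (adjusted p = 0.000414). Neither gene overlapped between the treatments. Kcnn3 and Kcnn4, genes of calcium-activated potassium channels, and Kcne4, the gene of an accessory subunit, also passed upward but were above the unnamed spots in neither treatment. Trpm7, the gene of a magnesium-permeable channel joined to a kinase, was higher by 0.71 ± 0.07 (adjusted p = 8.38e-10), with an overlap between 9.74 and 9.84.

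Among solute carriers, Slc35a1, which brings activated sialic acid into the Golgi, lay at 9.49 to 10.17 in OA and 8.83 to 9.32 in serum mice, higher by 0.80 ± 0.09 (adjusted p = 8.17e-09). Slc29a1, the gene of an equilibrative nucleoside carrier that takes up adenosine, lay at 8.15 to 9.07 against 9.53 to 9.98 and was lower by 1.06 ± 0.09 on the log2 scale, a ratio of 0.478 (adjusted p = 5.02e-11). Slc39a4, the gene of a zinc importer, lay at 7.57 to 8.40, not above the unnamed spots, against 8.94 to 9.74 in serum mice, which were at least 1.35-fold higher (adjusted p = 3.13e-13). None of these ranges overlapped. Cacnb3 and Slc4a8 passed downward and Slc22a7 upward with no level above the unnamed spots in either treatment.

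**Figure D5:**
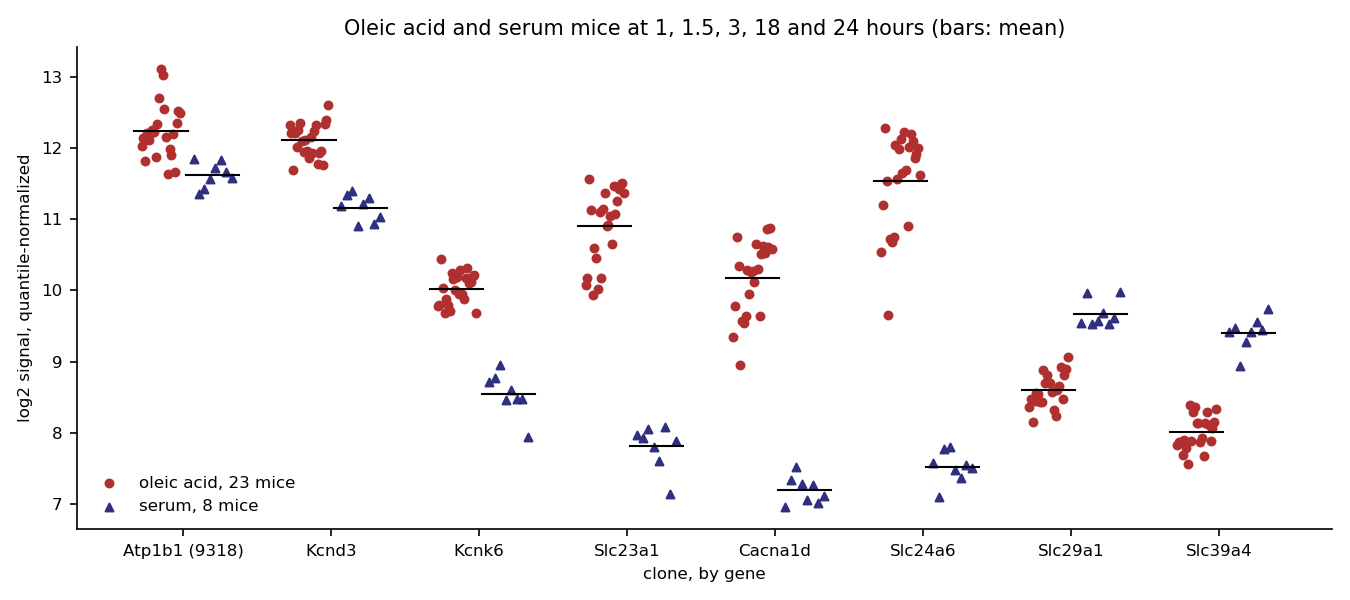
Log2 quantile-normalized signal of 8 member clones in 23 OA mice (red circles) and 8 serum mice (blue triangles) at the 5 shared times, with a bar at each mean. Slc23a1, Cacna1d and Slc24a6 lie farthest above serum, Kcnd3 and Kcnk6 lie above it, Slc29a1 and Slc39a4 lie below it, and Atp1b1 overlaps with it.

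Of the 10 members of highest signal not yet compared with serum, Slc16a13 (clone 3863) was higher by 1.26 ± 0.21 (adjusted p = 9.86e-06) and Slc45a3 (clone 5430) by 1.01 ± 0.15 (adjusted p = 1.37e-06), both with overlapping mice. With the fitted spot signal in place of the image signal these became 0.42 (adjusted p = 0.0582) and 0.44 (adjusted p = 0.0161), and with median centring 0.89 and 0.56. Each gene had a dim second clone at 7.90 and 8.50. Slc30a9 was higher by 0.54 ± 0.11 (adjusted p = 7.37e-05) and turned to -0.30 with median centring. Slc25a3 was 0.12 ± 0.10 from serum and -0.39 with median centring, and Clic4 (clone 3278) 0.40 ± 0.18 (adjusted p = 0.0552). The second clone of Clic4 (9336) had the opposite sign, -0.56 ± 0.16 (adjusted p = 0.00309). In all, 16 member genes had more than 1 clone.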

How the data were processed

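Lung cDNA was hybridized to nylon arrays. Per the study's methods, the authors quantified spots with Bzscan2, corrected them for neighbourhood and local background and quantile-normalized them. The deposited table holds log2 values, used for the OA time course, and the deposited array files hold linear intensity per spot, used against serum (floor 1, log2, quantile normalization over 60 arrays) because the table gives 1 combined serum column per time. Arrays of a mouse were averaged. Time, stage and treatment were fitted across 7625 gene-named clones with limma 3.58.1 in R 4.3.3, with Benjamini-Hochberg adjustment at 5%. The code was tested on simulated data. Members, gene lists and tests were chosen with earlier results of these data known. Named clones were the sodium and water clones, the clones called over time, the 15 with the lowest adjusted p against serum and the 10 brightest. Slc7a11 and members with only a stage call were named after their values were seen. An OA array of an unresolved mouse was left out, and mouse P7L3, labelled both 3 and 1.5 hours, was kept at 3 hours. Serum arrays were taken as mice as the study's design counts them. Alternatives were other scaling, signal columns and filters, lot as a block, arrays in place of mice and single mice left out. Some named items are not reported here.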

Additional observations from a re-analysis of the deposited data

Results flagged for a closer look

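Among 30 named clones, 120 groups of 4 to 7 OA mice of a time point were searched for a mouse far from the rest of its group, and 10 were found, where chance gives about 1 in 20 groups. For Aqp11 these were P5L3 at 9.88 (1 array, others 7.18 to 8.18) at 1.5 hours, P8L3 at 9.66 (1 array, others 7.25 to 8.18) at 3 hours and P4L1 at 8.14 (others 7.27 to 7.34) at 4 hours. For the sodium pump they were P4L3 at 10.67 in Atp1b1 clone 1830 (others 11.79 to 12.11) at 1.5 hours and P4L2 at 10.96 in Atp1b3 (others 11.92 to 12.07) at 1 hour. At 1 hour, P2L3 stood at 6.98 in Scnn1g (others 5.75 to 5.84) and at 8.14 in Cacnb3 clone 8927, whose other mice all lay at 8.04. Kcnn4 had P4L3 at 8.41 (others 7.40 to 7.65) and Clic4 clone 3278 had P8L2 at 11.34 (others 11.90 to 12.23), both at 1.5 hours. Trpm7 had P12L3 at 10.06 (others 10.45 to 10.53) at 4 hours. The OA minus serum difference of no named clone changed between early and late times in the limma test, and 2 of all gene-named clones did.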

How the results depend on the processing

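Shares in brackets are those of all clones that passed. Over the 6 times, 4 members passed (2.01%), against 2 with lot as a block, Slc38a2 and Slc39a14 (0.931%). With every array fitted and the mouse as a random block 8 passed (5.74%), and with 3 stages 8 (6.16%). After subtracting serum 73 passed (55.9%), and without the 24 hours mice 2 (0.826%). Early to intermediate, the 6 members (2.57%) became 3 with lot as a block (0.905%) and 0 within lots 2 and 3 (0.393%). Early to late, the 2 (1.65%) became 1 with median centring (1.39%), 0 with lot as a block (0.0262%) and 0 without the 24 hours mice (0.0525%). Intermediate to late, the 4 (3.19%) became 2 among clones above the unnamed spots (4.23% of all such clones). Against serum the 86 of 145 members (61.6%) became 29 of the 53 above the unnamed spots (58.3% of all such clones). Leaving out the 24 hours mice, and lot as a block for the early to late count, were chosen after seeing the data. Leaving out single mice gave 2 to 6 over time (moved by P3L1, P11L2, P13L3, P10L1, P11L1, P12L1, P7L1 or P8L1), 3 to 8 early to intermediate (P2L2, P3L2, P6L2, P1L3, P2L1, P3L1, P11L2 or P13L3), 0 to 6 early to late (19 of the mice) and 3 to 5 intermediate to late, and leaving out serum arrays gave 81 to 94 against serum. Median centring turned Atp1b1 to -0.40 (clone 1830) and -0.16 (clone 9318), Slc3a2 to -0.41, Slc30a9 to -0.30 and Slc25a3 to -0.39 against serum. The cause of these shifts was not tested. No paired analysis was possible because the serum columns carry no numbers that tie them to OA mice. Dim signal limits most members, 92 of which were not above the unnamed spots on average.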
